A study of Mus musculus with 25 samples.

Results

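Mitosis and cytokinesis genes were followed through sorted cells of the developing mouse retina. The set is a list of 39 genes whose products act between entry into mitosis and the separation of the daughter cells, and it was taken as named. Its rule sets no threshold on a measured value, although the list was drawn up with earlier results of these data known. All 39 had a value among the 28446 gene symbols of the RNA-seq table, all 39 had exon counts among the 23284 genes of the ATAC-seq table, and all 39 had a 10 kb region around a transcript start among 28329 such regions. The retinas came from CD1 mice and the cells were sorted by GFP. The labels call GFP+ cells retinal progenitor cells and GFP- cells post-mitotic retinal cells, while the transgene behind the GFP, the pooling of animals and the sort gates are not stated in them. RNA-seq covered embryonic day 14 (E14), embryonic day 18 (E18) and postnatal day 2 (P2), with 2 GFP+ and 2 GFP- libraries at each age. ATAC-seq, which reads open chromatin by transposase insertion, covered GFP+ cells only, from 1 library labelled as embryonic day 10 or 11 (E10 here) through E12.5, E14 and E16.5 to E18, P0 and P2, the last 6 stages with 2 libraries each. Nothing says that replicates came from separate litters, so p-values measure the spread between these libraries, which may be technical.

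A cell enters mitosis when cyclin B and its kinase Cdk1 become active together, and Plk1 and the Aurora kinases then drive spindle building. The kinetochore joins chromosomes to the spindle, the checkpoint holds the cell until every chromosome is attached, and Cdc20 with the anaphase-promoting complex then lets sister chromatids part. The central spindle and the contractile ring finish the division. Retinal progenitors divide at the outer surface of the retina, and their neuronal daughters leave the cycle and stop making these transcripts. The transcripts are made late in the cycle under the DREAM, B-Myb and FoxM1 complexes, which meet the promoters at a CHR element (cell cycle genes homology region), often next to CCAAT boxes bound by NF-Y.

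Several libraries stood apart, and the results that rest on them are given with and without them. The E14 GFP- library numbered 2 held lens, mesenchyme and pigment epithelium transcripts, with summed levels of 4458, 159 and 191 FPKM (fragments scaled to transcript length and library size), where the E14 GFP- library numbered 1 held 0.694, 2.97 and 7.29 FPKM. Its 10 pan-neuronal genes summed to 90.6 FPKM, below both E14 GFP+ libraries (312 and 107 FPKM) and far below the 5157 FPKM of its replicate, which goes against its post-mitotic label. The E14 GFP+ library numbered 2 carried lens transcripts too, at 121 FPKM. The E14 GFP- library numbered 1 stood apart in erythroid transcripts, with 6 genes summing to 2489 FPKM, against 73.3 FPKM in library 2 and 7.83 and 8.46 FPKM in the GFP+ libraries. All 4 E18 libraries differed from the other ages in abundant transcripts: histone genes took 2.61% to 9.57% of the summed FPKM there and 0.0338% to 0.0572% elsewhere. Among the ATAC-seq libraries, counts at transcript starts stood 6.40-fold over the flanks in the E10 library and 12.2-fold in the P2 library numbered 2, against 18.5-fold to 28.6-fold in the others.

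Promoter sequence came first, because a shared CHR is the feature these genes are best known for. RefSeq promoters (GRCm38.p6, 250 bases before to 50 after the start) were matched for 32 of the 39 genes. The CHR letters TTTGAA stood on either strand in 26 of these 32 promoters (81.2%), against 20.2% of 27025 promoters. From 50 bases before the start onwards, 23 of 32 (71.9%) had it, against 5.72% of all. The CCAAT box (CCAAT) was present in 24 of 32 (75%), against 41.1% of all, and both elements together in 21 of 32 (65.6%), against 7.97%. The GC box (GGGCGG) was in 26 of 32, against 38.2%, and the CHR variant TTCGAA in 3 of 32, against 1.80%. Among 60 promoters of other mitosis genes 30 held TTTGAA, as did 3 of 20 of S phase genes and 2 of 8 of pan-neuronal genes. The CCAAT box was in 42, 12 and 6 of these promoters (70%, 60% and 75%). The GC box was in 41, 14 and 5 (68.3%, 70% and 62.5%). Neither box was thus particular to the set. These are matches of letters, and binding was not measured. The 120 bases before the start are printed 5′ to 3′ for 5 genes that recur in the results. The start regions of Cdk1 and Kif11 passed the slope test over stages. Cdc20 and Ube2c were among the 3 lowest at P2 in GFP- level as a percent of the GFP+ level. Ccnb1 is the cyclin B gene whose window holds no TTTGAA. Capitals mark TTTGAA and CCAAT or their reverse complements TTCAAA and ATTGG. Coordinates are of GRCm38, whereas those of the ATAC-seq tables are of mm9.
Cdk1, chr10:69352913-69353032, minus strand: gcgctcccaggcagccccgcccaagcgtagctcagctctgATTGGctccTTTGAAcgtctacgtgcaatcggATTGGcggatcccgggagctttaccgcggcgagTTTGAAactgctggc
Kif11, chr19:37376262-37376381, plus strand: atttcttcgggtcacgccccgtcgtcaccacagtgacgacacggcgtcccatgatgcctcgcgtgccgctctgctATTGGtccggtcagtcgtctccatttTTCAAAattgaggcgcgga
Cdc20, chr4:118437344-118437463, minus strand: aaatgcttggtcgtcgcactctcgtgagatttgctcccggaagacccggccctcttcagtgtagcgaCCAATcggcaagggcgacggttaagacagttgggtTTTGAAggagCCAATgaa
Ube2c, chr2:164769809-164769928, plus strand: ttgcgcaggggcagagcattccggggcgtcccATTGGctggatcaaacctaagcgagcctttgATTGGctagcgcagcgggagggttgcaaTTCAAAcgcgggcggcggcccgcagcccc
Ccnb1, chr13:100786487-100786606, minus strand: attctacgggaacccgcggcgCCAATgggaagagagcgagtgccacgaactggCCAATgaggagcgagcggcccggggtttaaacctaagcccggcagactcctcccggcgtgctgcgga
Cdk1 had 2 TTTGAA matches in the printed stretch, each downstream of an ATTGG. Kif11, Cdc20 and Ube2c had 1 each, at positions -19, -18 and -29 from the start. Ccnb1 had 2 CCAAT boxes.

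The first question was how far GFP+ and GFP- cells differed in these transcripts. Mitosis transcripts were higher in GFP+ cells at E18 and P2 for every gene of the set, in all 7 roles. At E18 all 39 were higher (limma on log2(FPKM + 1), Benjamini-Hochberg adjusted p at most 0.00128), against 25.5% of the 13874 genes tested. The median log2 difference was 1.81, with a range of 1.44 to 2.17, and the median over all genes was 0.00. At P2 all 39 were again higher (adjusted p at most 0.00647), against 16.2% of all genes, with a median of 1.51 and a range of 1.16 to 1.69. GFP+ values lay above GFP- values without overlap for all 39 genes at each age, against 18.7% of genes at E14, 40.0% at E18 and 34.7% at P2. In bulk samples, fewer cells of a type and less RNA per cell cannot be told apart.

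These calls rest on the choice of libraries. The fit used the 8 libraries of E18 and P2, a choice made knowing that the E14 GFP- replicates lie far apart. In a limma fit of all 12 libraries, which shares their spread, 0 of 39 were called at E18 (lowest adjusted p 0.107), against 1.13% of genes called higher. An unadjusted p under 0.05 was reached by 8 of 39, against 4246 of all 14276 genes. At P2, 0 of 39 were called (lowest adjusted p 0.25), against 0.112% of genes called higher. There 1 of 39 had an unadjusted p under 0.05, against 2238 of 14276 genes. The log2 differences are the same in both fits. With FPKM rescaled without histone, mitochondrial and abundant noncoding genes, the median of all genes at E18 moved to -0.12 and the calls split into 2868 higher and 4677 lower, against 3537 and 3552 as reported. All 39 genes remained called as higher, with a median of 1.67.

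**Figure D1:**
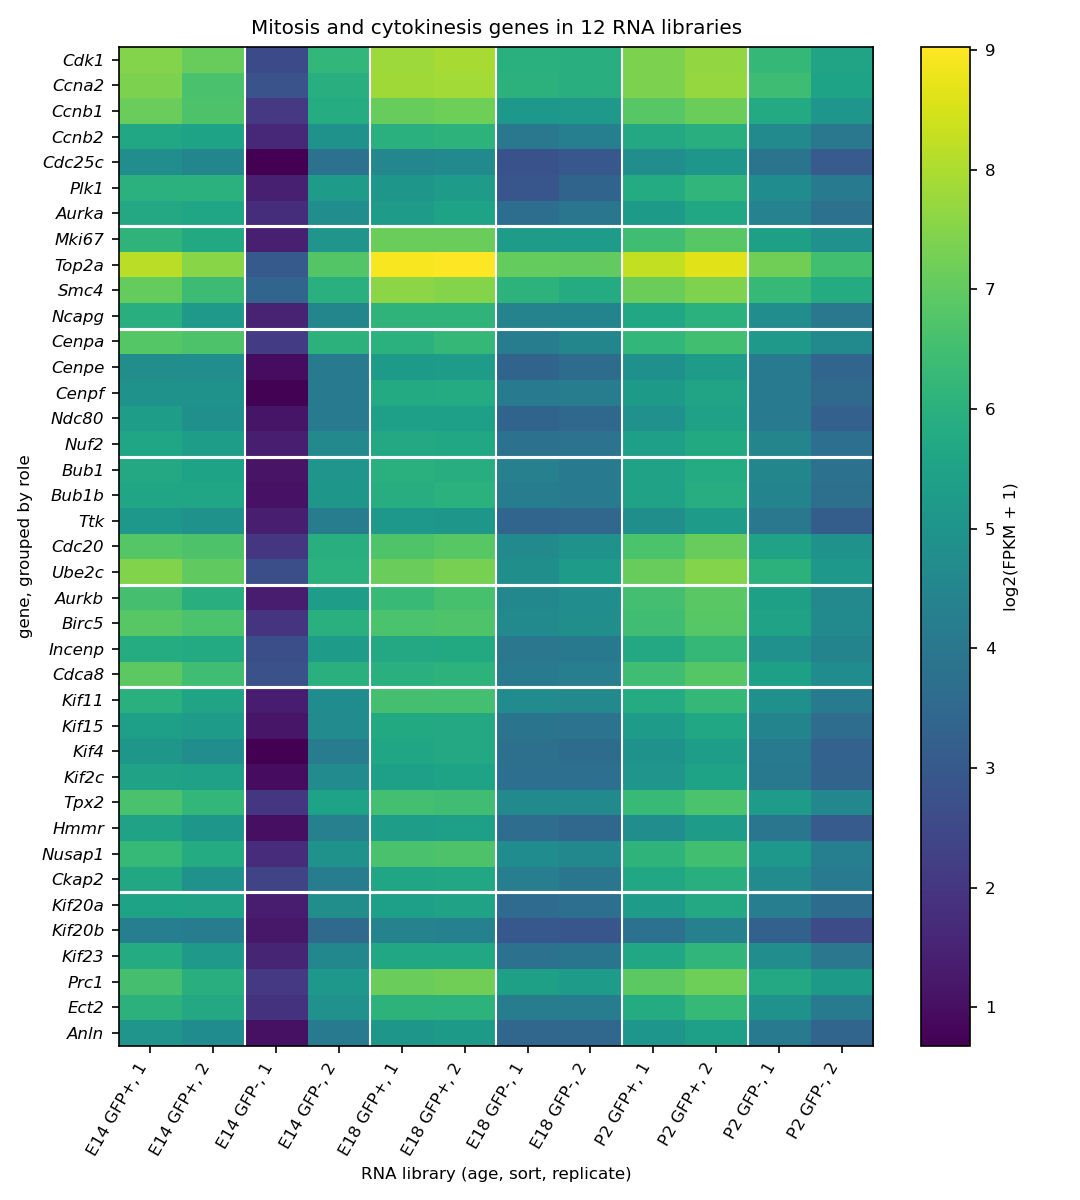
Level of each of the 39 genes, as log2(FPKM + 1), in each of the 12 RNA libraries, with genes grouped by role and white lines between roles and groups. Every gene is lowest in the E14 GFP- library numbered 1, and Top2a has the highest mean of every group.

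The kinases and cyclins of mitotic entry showed the sort difference at every level of abundance. Cdk1, the mitotic kinase (chr10:68799383-68815660, mm9, minus strand), had E18 levels of 223 and 241 FPKM in GFP+ cells, against 62.2 and 61.1 FPKM in GFP- cells. At P2 its GFP+ levels were 165 and 204 FPKM, against 74.4 and 46.2 FPKM. The groups did not overlap, and the log2 differences were 1.89 ± 0.20 (SE, n = 2 libraries per group here and below, adjusted p = 0.000139 by limma) and 1.63 ± 0.20 (limma adjusted p = 0.00066). Ccnb1, cyclin B1, differed by 2.00 ± 0.21 at E18 and 1.60 ± 0.21 at P2, from 136 and 145 FPKM against 34.0 and 34.9 FPKM at E18. Plk1, the kinase that acts from centrosome maturation to cytokinesis, had the largest E18 difference of the 7 genes of this role: 33.6 and 36.9 FPKM in GFP+ against 6.53 and 9.26 FPKM in GFP- libraries, or 2.04 ± 0.23. Aurka, the Aurora kinase of the spindle poles, had the smallest, 1.58 ± 0.21. Ccna2, Ccnb2 and Cdc25c (cyclins A2 and B2 and a phosphatase that activates Cdk1) lay between them.

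The most abundant gene belonged to the chromosome structure role. Top2a, the topoisomerase that untangles sister chromatids (chr11:98854261-98885503), had the highest mean of all 39 genes in every group, at E18 493 and 520 FPKM in GFP+ cells against 133 and 129 FPKM in GFP- cells. At P2 it had 302 and 402 FPKM against 147 and 89.1 FPKM. The log2 differences of 1.94 ± 0.22 and 1.60 ± 0.22 were the largest of this role at both ages. Mki67, which coats mitotic chromosomes and is the standard marker of cycling cells (chr7:142881471-142908062), had 141 and 137 FPKM against 37.9 and 37.2 FPKM at E18, a difference of 1.86 ± 0.18. Smc4, the condensin subunit, had the smallest difference of the role, 1.59 ± 0.16 at E18 and 1.23 ± 0.16 at P2. Ncapg, another condensin subunit, lay between.

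Among centromere and kinetochore genes the E18 difference ran from 1.62 ± 0.19 for Cenpf, a large protein of the outer kinetochore, to 1.94 ± 0.27 for Ndc80, which holds the microtubule. Cenpf had GFP+ levels of 54.2 and 55.3 FPKM at E18, against 16.6 and 17.7 FPKM. Cenpa, Cenpe and Nuf2 lay within that range. Of the checkpoint and anaphase genes, Ube2c, the ubiquitin-conjugating enzyme of the anaphase-promoting complex, had the largest E18 difference of all 39, 2.17 ± 0.28, from 138 and 158 FPKM against 27.7 and 36.9 FPKM. Cdc20, which activates that complex, had 106 and 116 FPKM against 23.9 and 30.4 FPKM, a difference of 2.00 ± 0.21. Ttk, the checkpoint kinase Mps1, had the smallest of the role, 1.70 ± 0.26, with Bub1 and Bub1b between.

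The chromosomal passenger complex corrects wrong attachments and then moves to the central spindle. Its kinase Aurkb had GFP+ levels of 80.02 and 96.5 FPKM at E18, against 22.7 and 26.4 FPKM, a log2 difference of 1.80 ± 0.25. Birc5 (survivin) had the largest difference of the complex at E18, 1.97 ± 0.25, and Incenp, its scaffold, the smallest, 1.71 ± 0.20. Cdca8 (borealin) differed by 1.86 ± 0.22. Differences between the 4 subunits were not tested.

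Spindle genes followed the same order of size. Nusap1, a microtubule-bundling protein, led the role with 1.99 ± 0.25 at E18, and Ckap2 closed it with 1.56 ± 0.20. Kif11, the motor that pushes the spindle poles apart (chr19:37450893-37496349), had 94.0 and 92.3 FPKM in GFP+ cells at E18, against 25.1 and 23.3 FPKM, or 1.90 ± 0.23. Kif4, a chromosome-bound motor, differed by 1.96 ± 0.24. Kif15, Kif2c, Tpx2 and Hmmr lay between. In the cytokinesis role Ect2, which activates RhoA at the cleavage site, had the largest E18 difference, 1.86 ± 0.25, and Kif20b, a motor of the late midbody, the smallest of all 39, 1.44 ± 0.24 (limma adjusted p = 0.00128). Anln, which organises the contractile ring, had 33.1 and 36.3 FPKM against 9.93 and 10.0 FPKM, or 1.70 ± 0.22. Kif20a, Kif23 and Prc1 lay between. Medians by role ran from 1.76 (centromere and kinetochore) to 1.87 (cyclins and kinases) at E18 and from 1.48 to 1.59 at P2. Differences between roles were not tested.

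**Figure D2:**
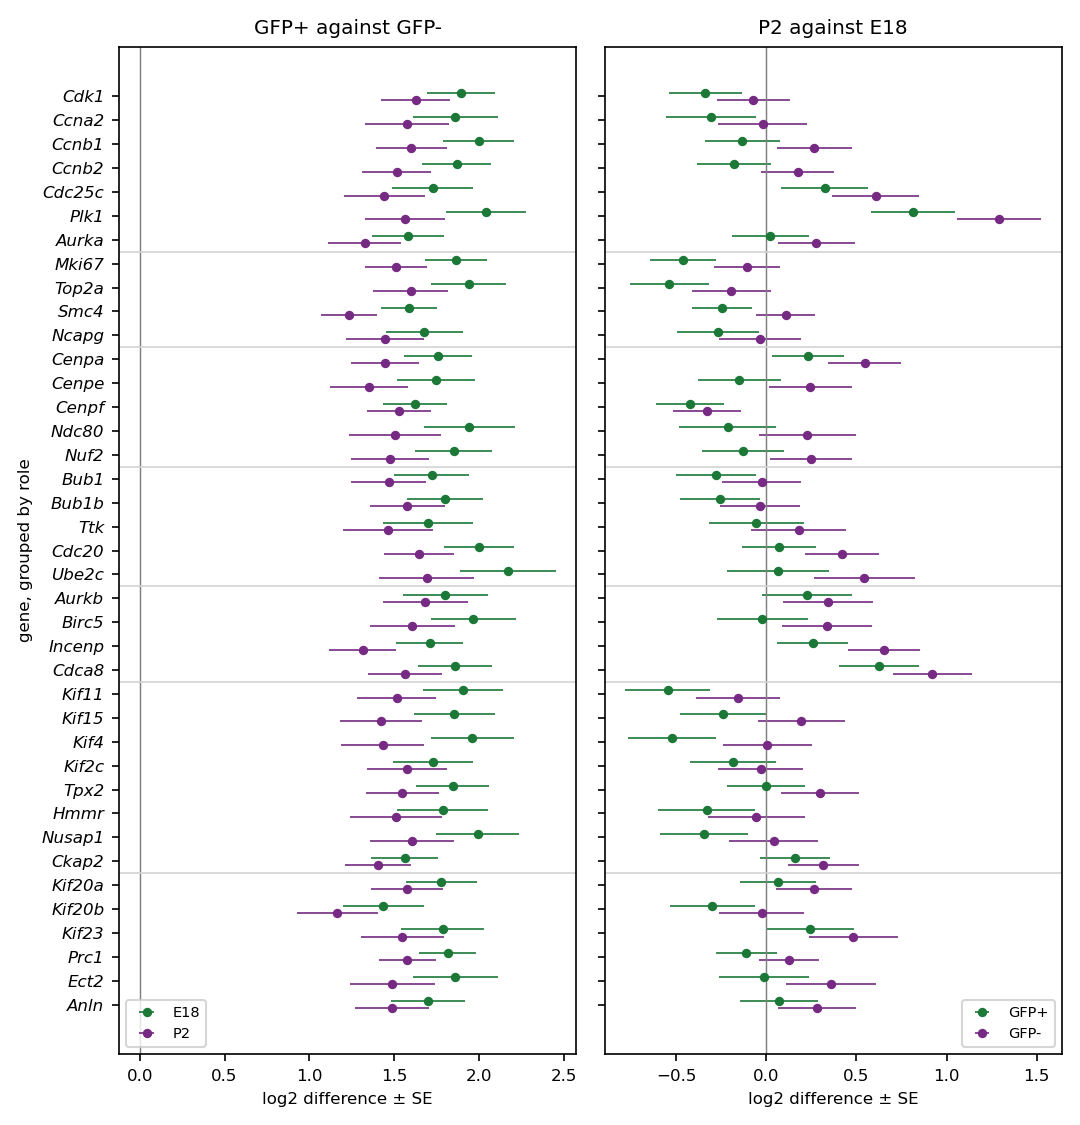
Left, log2 difference in log2(FPKM + 1) between GFP+ and GFP- cells at E18 and at P2; right, difference between P2 and E18 within GFP+ and within GFP- cells; points are limma estimates for each of the 39 genes and bars 1 SE. All left-hand values lie above 1, from 1.16 (Kif20b, P2) to 2.17 (Ube2c, E18), and on the right Plk1, Cdca8 and Incenp lie highest in GFP- cells.

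At E14 the direction was the same and the test gave no calls. The median log2 difference was 2.52, with a range of 1.83 to 2.94. By limma 0 of 39 genes passed the threshold (lowest adjusted p 0.3), as did 0.0% of the 14276 genes tested. All 39 had an unadjusted p under 0.05, as did 2246 of the 14276 genes. That count shares the spread of the E18 and P2 libraries. With the 4 E14 libraries alone, 1 of 39 had such a p, as did 159 of 12561 genes. The 2 GFP- libraries disagreed. Mki67 had GFP+ levels of 67.9 and 52.8 FPKM against 1.69 and 31.5 FPKM, and Plk1 had 63.0 and 63.7 FPKM against 1.68 and 37.8 FPKM. Over the set, the GFP- library numbered 2 held 4.12 to 29.4 times the level of library 1, with a median of 15.1. The 10843 genes with at least 1 FPKM in all 4 E14 libraries, a filter not applied to the set, had a median of 1.05. Without the library numbered 2, all 39 genes were called as higher in GFP+ cells, against 23.9% of all genes, with a median of 4.18. That value rests on library 1 alone as the GFP- sample, with its erythroid transcripts, whose part was not tested. Without the library numbered 1 the median was 0.86 and 0 of 39 were called.

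The second question was how much RNA of dividing cells the GFP- sort holds. At E18 the GFP- level was a median of 27.2% of the GFP+ level over the 39 genes, and at P2 34.6%, where the median of all genes with at least 1 FPKM in GFP+ cells was 93.8% and 95.9%. At E18 the 39 values spread little, from 21.8% to 33.8%. Ube2c was lowest at 21.8% (single pairs of libraries 17.6% to 26.8%), then Plk1 at 22.4% and Kif4 at 24.2%. Kif20b was highest at 33.8% (32.0% to 35.6%), then Smc4 at 33.1% and Ckap2 at 32.7%. The E18 replicates gave nearly the same answer, with medians of 26.7% and 27.0%.

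At P2 the set ran from 31.5% to 42.5%. Aurkb was lowest at 31.5%, then Cdc20 at 31.6% and Ube2c at 31.7%, and Smc4 was highest at 42.5%, then Kif20b at 41.8% and Incenp at 39.1%. Ube2c was thus among the 3 lowest and Smc4 and Kif20b among the 3 highest at both ages. The P2 replicates did not agree: GFP- library 1 held a median of 43.3% of the GFP+ mean and library 2 25.7%. Library 2 was below library 1 in all 39 genes, at a median of 0.597 times its level. The median of the 11553 genes with at least 1 FPKM in all 4 P2 libraries was 1.07. The GFP+ libraries differed the other way, with library 2 above library 1 in all 39 genes at a median of 1.31 times. Single pairs of P2 libraries therefore gave medians from 22.8% to 49.4%, a span that includes the E18 value.

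**Figure D3:**
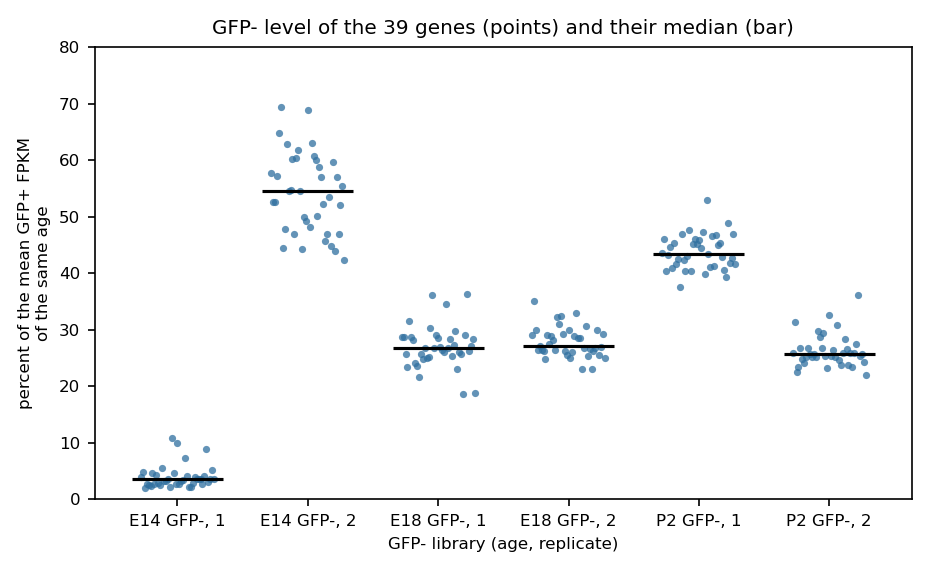
Level of each of the 39 genes (points) in each GFP- library, as a percent of the mean GFP+ FPKM of the same age, with the median as a bar. The medians are 3.51% and 54.5% at E14, 26.7% and 27.0% at E18, and 43.3% and 25.7% at P2.

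At E14 the answer depended on the library. The GFP- library numbered 1 held a median of 3.51% of the GFP+ level, from 1.96% for Aurkb to 10.7% for Ckap2, and library 2 held 54.5%. Library 2 is the one with lens, mesenchyme and pigment epithelium transcripts; their part in its mitosis transcripts was not tested.

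Genes of other dividing-cell programmes were set beside the mitosis genes. Progenitor genes, which are transcription factors and signalling genes such as Sox2 and Hes1, stood in GFP- cells at a median of 31.3% of GFP+ at E18 and 46.5% at P2 (14 genes), and in the E14 GFP- libraries at 4.63% and 54.6%. S phase genes stood at 32.9% at E18 and 43.3% at P2 (25 genes). Other mitosis genes stood at 28.8% and 36.6% (71 genes). The order of the E14 and P2 libraries was the same in all 4 lists, with E14 library 2 above library 1 and P2 library 1 above library 2. Neuronal genes ran the opposite way: the GFP+ level of 10 pan-neuronal genes was a median of 9.73% of the GFP- level at E18 and 11.8% at P2. Markers of other cells were low at E18 and P2. In GFP- libraries 8 lens genes summed to between 0.875 and 2.998 FPKM, 6 mesenchyme genes to between 2.39 and 6.203 FPKM and 6 microglia genes to between 1.94 and 5.09 FPKM, whereas 6 erythroid genes reached 30.2 to 191 FPKM and 6 endothelial genes 57.0 to 109 FPKM. The endothelial sum was 154 to 244 FPKM in GFP+ libraries, but 2 of the 6 genes reached 1 FPKM there, and at E18 their GFP- levels were 33.3% and 127% of GFP+, in opposite directions. The part of these cells in the mitosis transcripts was not tested.

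Of the 71 other mitosis genes measured, 69 were called higher and 1 lower in GFP+ cells at E18, with a median of 1.67. At P2, 67 were called higher and 0 lower, with a median of 1.37. Over all genes 25.5% were called higher and 25.6% lower at E18, and 16.2% and 17.7% at P2. Kif22, a chromosome-arm motor, differed by 1.93 ± 0.17 at E18 (limma adjusted p = 5.13e-05), and Cdc25b, a phosphatase of mitotic entry that retinal progenitors express, by 1.54 ± 0.14. Pbk and Spc25 followed, at 2.00 ± 0.19 and 1.95 ± 0.19. At P2 the smallest p-values were those of Cdc25b (1.28 ± 0.14), Ncapd2 (1.37 ± 0.15), Kif22 (1.43 ± 0.17) and Spc25 (1.54 ± 0.19). The 1 gene that ran the other way at E18 was Zwint, a kinetochore protein, lower in GFP+ cells by a log2 difference of -0.75 ± 0.12 (limma adjusted p = 0.000985). It is named after its value was seen. All 25 S phase genes were called higher in GFP+ cells at E18 and 24 at P2, with medians of 1.56 and 1.18. Of 14 progenitor genes 12 were called higher at each age, with medians of 1.62 and 1.11.

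The third question was whether the level within 1 sort changed with age. In GFP+ cells between E18 and P2, Plk1 was the 1 gene of 39 called, higher at P2 by 0.81 ± 0.23 (limma adjusted p = 0.027), against 17.1% of all genes called higher. It had 33.6 and 36.9 FPKM at E18 and 54.6 and 71.8 FPKM at P2, with no overlap. The E14 libraries, at 63.0 and 63.7 FPKM, stood near the P2 values. The call was lost when either E18 GFP+ library or the P2 GFP+ library numbered 2 was left out, and with no filter on low values. The median of the set was -0.13, against -0.04 over all genes. With the rescaled FPKM all calls between these ages split into 3081 higher and 2181 lower, against 2378 and 2543 as reported.

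Genes of chromosome structure had the lowest values of the 7 roles, with a median of -0.36. Top2a was at -0.54 ± 0.22 and Mki67 at -0.46 ± 0.18, with limma adjusted p of 0.0902 and 0.0807, so neither passed. Kif11 had the lowest value, -0.55 ± 0.23 (limma adjusted p = 0.103). The chromosomal passenger complex had the highest median, 0.24, led by Cdca8 at 0.63 ± 0.22 (limma adjusted p = 0.0552). The histone share and the level of Malat1, a nuclear noncoding RNA (1706 to 3935 FPKM at E18, 81.6 to 135 FPKM at P2), changed between the same libraries; their part in these differences was not tested. Between E14 and P2 in GFP+ cells 0 of 39 genes were called by limma and 0 had an unadjusted p under 0.05, against 1.15% of all genes called, with a median of 0.17.

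In GFP- cells 3 of 39 genes were called higher at P2 than at E18, against 20.6% of all genes called higher. Plk1 rose from 6.53 and 9.26 FPKM to 25.7 and 16.4 FPKM, or by 1.29 ± 0.23 (limma adjusted p = 0.00287). Cdca8 rose from 15.9 and 18.1 FPKM to 42.3 and 25.6 FPKM, by 0.92 ± 0.22 (limma adjusted p = 0.0105). Incenp rose by 0.65 ± 0.20 (limma adjusted p = 0.0279). Cdca8 and Incenp are passenger subunits, of which 2 of 4 were called, and 0 of 6 central spindle and cytokinesis genes were. Differences between roles were not tested. The median of the set was 0.23, against -0.01 over all genes. The count depended on the P2 replicate: without P2 GFP- library 2, 19 genes were called higher, against 13.8% of all genes, and without library 1, 6 genes were called, 2 higher and 4 lower, against 43.1% of genes called either way, with a median of -0.12. Without the E18 GFP- library numbered 1, which leaves 1 library in that group, Plk1, Cdca8 and Incenp were again higher at P2, but not all were called.

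Among other mitosis genes 11 were called higher and 7 lower in GFP- cells at P2 than at E18, and 5 higher and 7 lower in GFP+ cells. Over all genes 20.6% were called higher and 22.3% lower in GFP- cells, and 17.1% and 18.3% in GFP+ cells, so these counts of 71 lie below the background. Foxm1, the transcription factor of the late cell cycle, had the smallest p-value in both sorts, rising by 1.29 ± 0.19 in GFP+ cells (limma adjusted p = 0.00162) and by 1.57 ± 0.19 in GFP- cells (limma adjusted p = 0.000452). Cdc25b rose by 0.81 ± 0.14 and 1.07 ± 0.14, and Cenpl, a centromere protein, by 0.98 ± 0.18 and 1.19 ± 0.18. Arhgap11a rose by 0.96 ± 0.18 in GFP+ cells, while Zwint fell by 0.71 ± 0.12 in GFP- cells on the log2 scale. Of 25 S phase genes, which copy the DNA, 0 were called higher and 9 lower in GFP+ cells, against 18.3% of all genes called lower. Their median was -0.71. For these lists too, the E18 and P2 libraries differed in histone share and Malat1 level, as given above, and the part of this was not tested.

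The sort difference at P2 was smaller than at E18 for all 39 genes, by a median of -0.30 on the log2 scale, and the test of that difference called 0 of 39 (limma, lowest adjusted p 0.492, 0 with an unadjusted p under 0.05), against 3.03% of all genes. Leaving out the P2 GFP- library numbered 1 turned the median to 0.04, and leaving out library 2 took it to -0.65. The set is therefore not shown to differ between the ages in its sort difference.

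The last question was how chromatin at these genes behaved over the 7 stages. Counts peaked at most of these starts in GFP+ cells: the central 400 bp of each of the 39 start regions exceeded the flanks in 13 of 13 libraries. The median of the genes' own ratios was 136, with Aurkb (2.73) and Ccna2 (3.43) lowest. On mean counts per library, the set stood 13.2-fold to 99.5-fold over the flanks, where all regions stood 6.40-fold to 28.6-fold. How many of all regions do so was not counted, here or for the next count. In 35 genes the highest 200 bp window lay within 200 bp of the start. The exceptions were Aurkb, whose highest window lay 4500 bp upstream, Ccna2 at 900 bp and Nusap1 at 300 bp downstream, and Smc4 at 300 bp upstream. The regions of 10 genes held the start of another gene, such as Brd8 beside Kif20a, Oip5 beside Nusap1 and Ift80 beside Smc4, and their counts cannot be told apart within the shared region. Set against all regions, the median member stood at percentile 74 of counts in 10 kb and at percentile 81.2 in the central 400 bp.

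**Figure D4:**
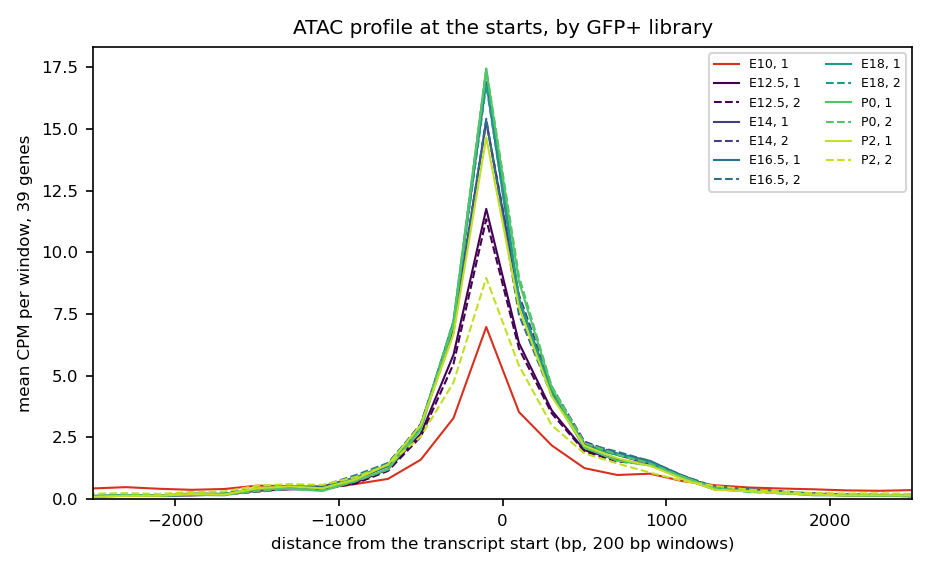
Mean ATAC level (CPM) in 200 bp windows around the starts of the 39 genes, 1 line per GFP+ library (broken lines, replicate 2; red, E10). The window just upstream of the start reaches 11.3 to 11.8 at E12.5 and 17.4 to 17.5 at P0, and is lowest at E10 (6.98) and in the P2 library numbered 2 (8.96).

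Start counts were higher at P0 than at E12.5, the earliest stage with 2 libraries and the last stage before P2. Calls used the edgeR quasi-likelihood test, with a Benjamini-Hochberg adjusted p under 0.05. In the 10 kb regions 31 of 39 genes were called higher and 0 lower, against 29.9% of 27902 regions called higher. The median log2 difference was 0.60, against 0.01 over all regions. In the central 400 bp 26 genes were called higher, against 21.5% of regions, with a median of 0.54 where that of all regions was -0.13. Start enrichment over all regions was 19.9-fold and 18.5-fold at E12.5 and 27.8-fold and 28.6-fold at P0; its part in the difference was not tested. Exons were counted separately, though first exons overlap the start regions. Over exons 27 of 39 genes were called higher and 0 lower, against 23.0% of 22097 genes called higher. The median was 0.58, against -0.05 over all genes. All 27 were also called in the start regions. Without the P0 library numbered 1, which leaves 1 library at P0, fewer were called over exons, in the set and over all genes. The median of the set was then 0.59, against -0.05 over all genes.

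Cdk1 had the smallest p-value. Its region held 32.5 and 31.8 CPM (counts scaled to the library's total) at E12.5, 53.7 and 57.8 CPM at E14, 62.6 and 60.1 CPM at E16.5, 60.4 and 61.4 CPM at E18 and 70.0 and 71.1 CPM at P0. At P2 it held 60.6 and 43.1 CPM, and the E10 library had 34.0 CPM. The difference between P0 and E12.5 was 1.14 ± 0.15 (edgeR adjusted p = 1.4e-09), with no overlap. Kif20a, a motor of the central spindle whose region it shares with Brd8, went from 40.3 and 33.2 to 89.0 and 82.5 CPM, or 1.22 ± 0.16. Tpx2, which activates Aurora A on the spindle, rose by 0.97 ± 0.14, Cdca8 by 0.95 ± 0.14 and Nusap1 by 0.98 ± 0.16. Kif11 went from 32.2 and 31.4 to 56.4 and 56.0 CPM, by 0.82 ± 0.14, and Cenpf and Ndc80 rose by 0.85 ± 0.16 and 0.80 ± 0.15. Over exons the 8 smallest p-values were those of Cdk1 (1.22 ± 0.17), Kif20a, Cdca8, Mki67, Birc5, Cenpf, Tpx2 and Smc4, with log2 differences from 0.83 to 1.28.

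Most of this difference in medians lay between E12.5 and E14, a step that was not tested. The median region of the set held 40.3 and 37.1 CPM at E12.5, 55.0 and 57.3 CPM at E14 and 58.5 and 60.8 CPM at P0. The E14 libraries differed in make-up, with 12819904 and 15915391 counts over exons and 67780849 and 84474514 in start regions. E18 library 2 had fewer over exons (12203122) and more in start regions (94662422). The part of this in the step was not tested. The 8 genes not called in their start regions were Anln, Aurkb, Cdc20, Cenpa, Hmmr, Ncapg, Plk1 and Ttk. Ttk had 105 and 99.0 CPM at E12.5 and 101 and 104 CPM at P0, a difference of 0.01 ± 0.17, and Cdc20 0.05 ± 0.14. Plk1, called between E18 and P2 in both sorts by RNA, had 25.3 and 25.1 CPM at E12.5 and 30.3 and 27.5 CPM at P0, a difference of 0.20 ± 0.13 that did not pass (edgeR adjusted p = 0.162). By role the called share ran from 3 of 5 checkpoint and anaphase genes to 7 of 8 spindle genes.

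**Figure D5:**
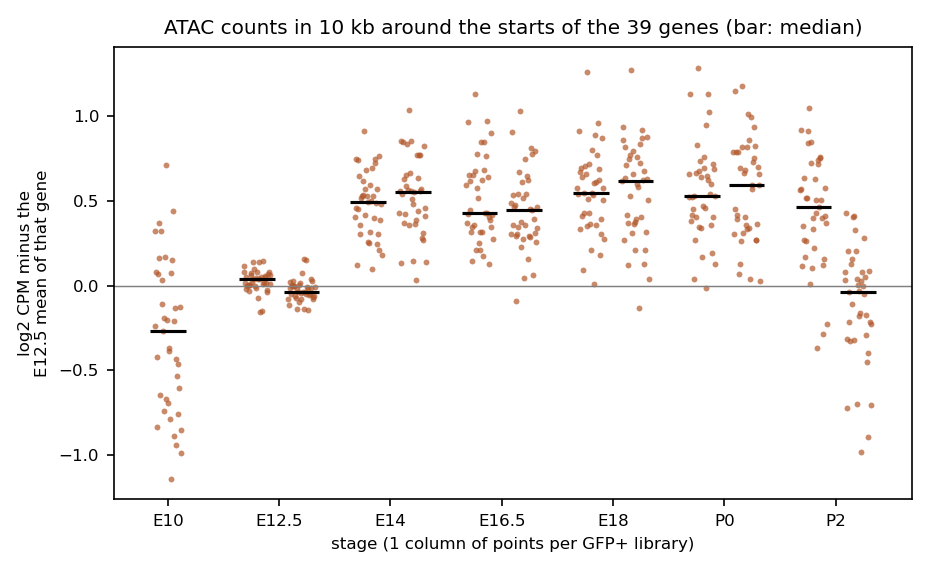
ATAC counts in the 10 kb region of each of the 39 genes, as log2 CPM minus the E12.5 mean of that gene, 1 column of points per GFP+ library with its median as a bar. Medians lie above 0 in every library from E14 to P0 and in P2 library 1, while those of the E10 library and P2 library 2 lie below 0.

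A slope over stage rank 1 to 7 gave few calls. In start regions Kif11 (0.14 ± 0.04 log2 per stage, edgeR adjusted p = 0.0159) and Cdk1 (0.14 ± 0.04, edgeR adjusted p = 0.0455) were called as higher, 2 of 39, against 5.2% of regions. Over exons the same 2 genes were called, Cdk1 at 0.18 ± 0.05 and Kif11 at 0.13 ± 0.03 per stage, against 2.8% of genes. The count turned on the P2 library numbered 2: without it 25 of 39 start regions were called higher, against 25.9% of regions, and 22 of 39 genes over exons, against 18.4%. Leaving out either E12.5 library left 0 calls in both tables. Over exons 0 were also called without any 1 library of E18 or P0 or without P2 library 1. In start regions 1 was called without E10, without E16.5 library 2, without any 1 library of E18 or P0 or without P2 library 1, and 4 without E14 library 2. In these fits 146 to 323 of all genes were called higher over exons, and 754 to 1890 of all start regions. Of 70 other mitosis genes, 34 were called higher and 4 lower over exons at P0 than at E12.5, against 23.0% and 19.0% of all genes. Their median was 0.43.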

How the data were processed

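The members and all gene lists were chosen with earlier results of these data known. RNA-seq (12 libraries) and ATAC-seq (13 libraries) were grouped by assay, stage and sort as the labels give them. The authors deposited RNA levels as FPKM, a unit inferred from the values, with sums of 383872 to 504845 per library. How they were computed is not given in the sources used here. The submitters' processing notes name Bowtie2, HISAT2, Picard 2.10.7, SAMtools 1.5, featureCounts 1.5.3 and bedtools 2.26.0, and mm9 and mm10 as builds, with no step or assay. RNA depth in fragments is not known exactly, and the steps between the lowest values put the E18 libraries, roughly, as the shallowest. The deposited ATAC tables hold a count per gene over exons (1474790 to 15915391 per library) and a count per 200 bp window, both on mm9 by their chromosome ends. Runs of 50 windows were summed to 28329 start regions (11176227 to 94662422 counts per library), leaving out 7998 windows. For a gene with several regions, the one with the highest count was used. Start enrichment is the central 400 bp over the 6 outermost windows.

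RNA was tested with limma 3.58.1 (intensity trend) on log2(FPKM + 1), among genes that reached 1 FPKM in 2 or more libraries. The fit used the 8 libraries of E18 and P2 in 4 groups, and all 12 in 6 groups where E14 enters. The pseudocount understates changes of low genes. ATAC counts were tested with edgeR 4.0.16 (quasi-likelihood, TMM, default filter), with DESeq2 1.42.0 as an alternative. P-values were adjusted over all features tested, with a threshold of 0.05. ATAC standard errors were taken as |log2 value| divided by the square root of F. Scripts were tested on simulated data.

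Genes named with values were 11 chosen by name and those with the largest and smallest E18 sort difference of each role. Also named were the 3 highest and 3 lowest GFP- levels as a percent of GFP+ at E18 and P2. Up to 8 members called between ages or stages, and up to 4 other mitosis genes per contrast, were added. Genes of chromosome 18 were not used for printed sequence. Alternatives covered scaling, filters, pseudocount, libraries, replicate block and test.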

Additional observations from a re-analysis of the deposited data

How the results depend on the processing

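Every direction of the 39 sort differences held under every alternative run. At E14 the median log2 difference was 4.41 without both E14 libraries numbered 2 (added after seeing the data). It ran from 0.86 to 4.18 with 1 library left out. The fit of all 12 libraries called 0 at E18, 0 at P2 and 0 between E18 and P2 in either sort. Of all 14276 genes it called 516 at E18 and 212 at P2 either way. Between the ages it called 1139 in GFP+ and 1586 in GFP- cells. In GFP+ cells from E18 to P2, the count of 1 became 0 with no filter and 2 with rescaled FPKM, and ran from 0 to 1 with 1 library left out. In GFP- cells the count of 3 ran from 1 to 19. Between P0 and E12.5 over exons, leaving out 1 library gave 15 to 22 of 39. For the slope, start regions gave 5 with DESeq2 (2268 of 27902 regions called higher) and 25 without E10 and both P2 libraries (7200 of 27743). They gave 1 in the central 400 bp (1535 of 27324) and 0 to 25 with 1 library left out (754 to 7217 regions called higher). Exons gave 5 with DESeq2 (1347 of 22097 genes called higher) and 27 without E10 and both P2 libraries (3981 of 21056). They gave 0 to 22 with 1 library left out (146 to 4057 genes called higher). The E18 median GFP- level of 27.2% became 28.03% with quantile scaling and 30.3% with rescaled FPKM, and ran from 26.6% to 27.6% with 1 library left out. The cause of these changes was not tested, beyond the smaller number of samples.

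Correlations of the deviations of same-numbered libraries ran from -0.56 (P2) to 0.36 (E14) in RNA. The E14 libraries with the same number thus deviated together and those of P2 against each other, so the numbers were not taken to pair the samples across the series. With the replicate block the RNA counts kept 39 at E18, 39 at P2, 0 at E14, 1 and 3. The block, fitted without E10, gave 0 for the slope in start regions and 1 over exons, against 1403 of 27773 regions and 751 of 21413 genes called higher. RNA precision is limited by 2 libraries per group and by unknown fragment counts, and the ATAC contrast by the P0 libraries, which include the shallowest over exons (1474790 counts).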
